A study of Mus musculus with 12 samples.

Results

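The 6 libraries compared here hold RNA of CJ9 cells, a mouse embryonic stem cell line, with the genotype given as arid4b∆ and called knockout below. The cells had been directed for 5 days to endoderm (3 libraries) or to mesoderm (3 libraries). They are 6 of the 12 RNA sequencing libraries of the series, and were taken by their column names in the deposited count table. The other 6 libraries, from wild type CJ9 cells under the same protocols (3 each), served as the reference for which differences between protocols remained. The ARID4B protein belongs to the SIN3-HDAC complex, which acts on chromatin, and the series is about its role when stem cells commit to a lineage. The labels name neither the factors added in each protocol nor the number of knockout clones. Nothing in them shows that the 3 libraries of a group are separate cultures. The p-values therefore measure only how far these libraries spread, and that spread may be technical.

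Of 19680 genes in the table, 11635 passed a filter on low counts and were tested. The filter took the libraries of both genotypes, so genes with few knockout counts could pass on their wild type counts. Levels are given as CPM, a gene's counts scaled by the library's total without the ribosomal RNA precursor Rn45s, with TMM correction for composition. The knockout libraries held 3435580 to 6678893 such counts, so 3 counts corresponded to 0.449 to 0.873 CPM in them. A difference is the log2 fold change of endoderm minus mesoderm, so negative values are higher in mesoderm. Genes were called at an adjusted p under 0.05 (edgeR quasi-likelihood test, Benjamini-Hochberg over all tested genes). Arid4b itself was counted at 42.7, 51.0 and 44.9 CPM in knockout endoderm and at 44.7, 41.5 and 47.5 CPM in knockout mesoderm. Wild type libraries lay between 36.7 and 46.4 CPM, so whole-gene counts cannot check the deletion, and every statement about knockout rests on the labels.

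BMP ligands act through receptors that phosphorylate SMAD1, SMAD5 and SMAD8, which enter the nucleus with SMAD4 and switch on genes such as the Id family. In the early embryo BMP signals favour mesoderm, and high Nodal or Activin signals, read through SMAD2 and SMAD3, favour endoderm. Naive pluripotency is the state of the early epiblast, held by factors such as ESRRB, KLF2 and TFCP2L1, and it is left behind before the germ layers form. In bulk RNA, fewer cells of a type and less RNA per cell cannot be told apart.

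Fewer genes separated the protocols in knockout than in wild type. Between the protocols 216 genes were called in knockout (1.86% of those tested), 111 higher in endoderm (0.954%) and 105 higher in mesoderm (0.902%). In wild type 1145 genes were called (9.84%), 513 higher in endoderm (4.41%) and 632 higher in mesoderm (5.43%). Differences of 2-fold or more made up 105 of the knockout calls and 611 of the wild type calls. The 3 knockout endoderm libraries lay fully apart from the 3 knockout mesoderm libraries in 2119 genes (18.2%), with endoderm above in 1116 (9.59%) and mesoderm above in 1003 (8.62%), and in 214 of the 216 called. The difference between genotypes was called in 163 genes (1.4%) by the interaction term. The knockout calls dropped to 59 without knockout mesoderm library 3, and of these 57 were among the 216. Without knockout endoderm library 2 there were 83, without mesoderm library 2 there were 120 and without endoderm library 3 there were 133. A fit with a term for the library number called 377 genes in knockout, all 216 among them, and 1310 in wild type.

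Most knockout calls pointed the same way as in wild type. Of the 216 genes, 200 (92.6%) had the same sign in the wild type libraries, against 60.8% of all tested genes. Both genotypes called 132 genes in the same direction, which is 61.1% of the knockout calls and 11.5% of the wild type calls, with 67 higher in endoderm and 65 higher in mesoderm. Over the 65 the median difference was -1.51 in knockout and -1.73 in wild type, and over the 67 it was 0.80 and 1.19. A further 79 genes were called only in knockout, 6 of them with a called interaction, and 1008 only in wild type, 137 of them with a called interaction. A call in one genotype alone shows no difference between genotypes, and the difference is stated below only where the interaction was called.

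For the largest wild type differences the knockout values were as follows. Of 153 genes called at least 4-fold higher in wild type mesoderm, 141 had the same sign in knockout, 27 were called there and 14 had a called interaction, and their median moved from -2.82 in wild type to -1.22 in knockout. Of 92 genes called at least 4-fold higher in wild type endoderm, 68 had the same sign in knockout, 21 were called and 42 had a called interaction, and the median moved from 2.69 to 0.46. These genes were chosen by their wild type values, so the wild type medians follow from that choice. Over all tested genes, the root mean square log2 difference between a knockout endoderm and a knockout mesoderm library was 0.445 to 0.527. Within a knockout group it was 0.359 to 0.449. Between wild type libraries of different protocols it was 0.558 to 0.711, and within a wild type group it was 0.369 to 0.545.

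**Figure D1:**
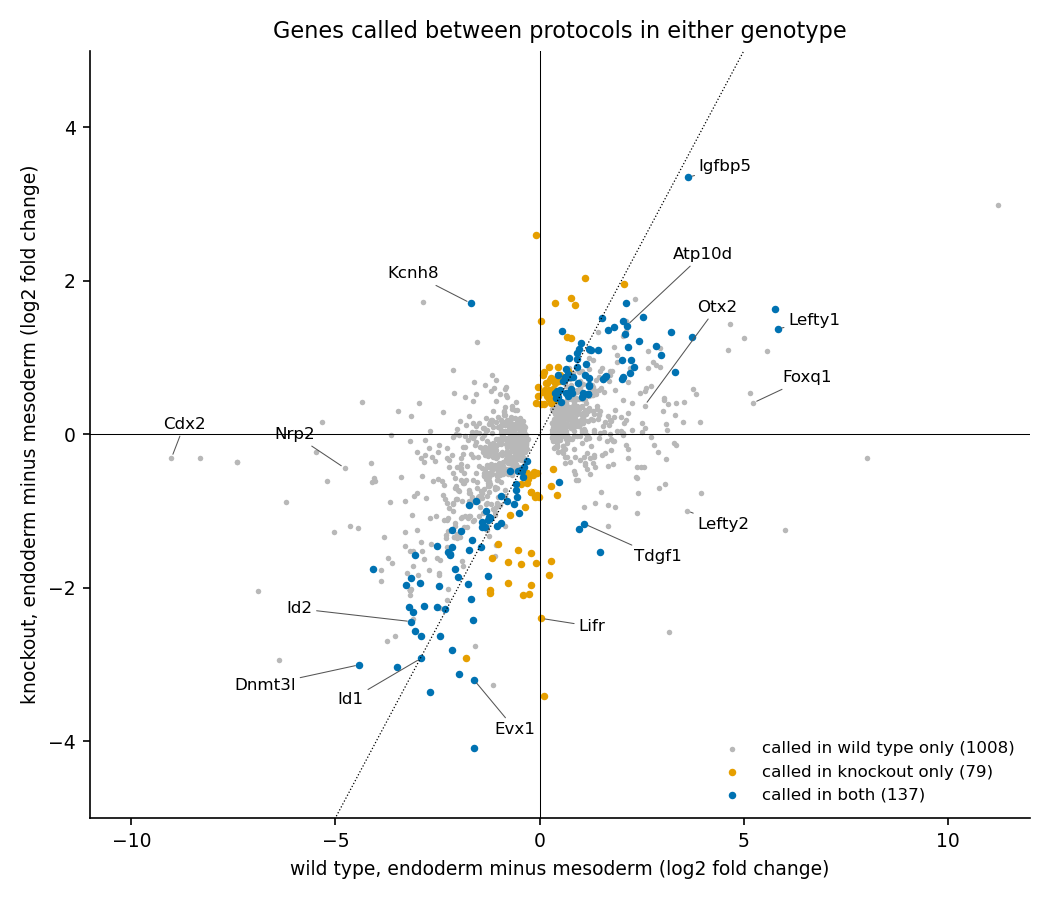
Each point is a gene called between endoderm and mesoderm in wild type only (grey), knockout only (orange) or both (blue), placed by its log2 fold change (endoderm minus mesoderm) in wild type (x axis) and knockout (y axis), and the dotted line marks equal values. Id1 (-2.90 and -2.92) and Igfbp5 (3.64 and 3.35) lie near the line, Lefty1 (5.83 and 1.37) far below it, and Lifr (0.03 and -2.40) near 0 on the wild type axis.

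Of the 11 BMP targets called in wild type, 4 were also called in knockout, in the same direction. The inhibitors of basic helix-loop-helix factors Id1, Id2 and Id3, direct targets of BMP-activated SMADs in many cell types, were 3.6-fold to 7.57-fold higher in knockout mesoderm than in knockout endoderm. Id1 (chromosome 2, 152736251 to 152737410) stood at 4.94, 3.22 and 2.02 CPM in knockout endoderm and at 23.2, 26.5 and 24.5 CPM in knockout mesoderm. All 3 mesoderm libraries were above every endoderm library, and the difference was -2.92 ± 0.26 (SE; adjusted p = 9.37e-07). In wild type Id1 stood at 5.65 to 5.82 CPM in endoderm and at 29.9 to 53.6 CPM in mesoderm, a difference of -2.90 ± 0.22. The interaction was -0.02, with a 95% interval from -0.62 to 0.59, so the knockout difference was not shown to be smaller or larger.

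Id2 stood at 4.07, 2.37 and 2.63 CPM in knockout endoderm and at 10.6, 20.3 and 16.8 CPM in knockout mesoderm (-2.44 ± 0.29, adjusted p = 6.7e-05). Id3 stood at 4.36, 4.91 and 6.47 CPM against 19, 22.5 and 16.3 CPM (-1.85 ± 0.21, adjusted p = 2.84e-05). Neither gene's groups overlapped. The wild type differences were -3.14 ± 0.27 for Id2 and -1.26 ± 0.19 for Id3, and neither interaction was called (adjusted p = 0.649 and 0.501). Id1, Id2 and Id3 were each called under all 22 alternative settings tried.

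Msx1, a homeobox gene induced by BMP, stood at 0.872, 0.847 and 1.01 CPM in knockout endoderm and at 1.96, 8.31 and 7.20 CPM in knockout mesoderm. Every mesoderm library was higher, but library 1 much less so than the other two, and the endoderm group rested on 13 counts in all. The difference was -2.63 ± 0.52 (adjusted p = 0.00766). Smad6, an inhibitory SMAD that BMP signals induce as feedback, stood at 0.872, 1.02 and 0.607 CPM against 2.80, 3.08 and 4 CPM (-1.94 ± 0.42, adjusted p = 0.0155), from 12 and 35 counts. In wild type Smad6 was not called (-0.77 ± 0.27, adjusted p = 0.0761), and the interaction was not called either (adjusted p = 0.385). Neither was called without knockout mesoderm library 3 (adjusted p = 0.0713 for Msx1 and 0.119 for Smad6). Without knockout endoderm library 2 the values were 0.0582 and 0.0546. Msx1 also lost its call without mesoderm library 2 (0.0612) and with limma-voom (0.134), and Smad6 without endoderm library 3 (0.0787).

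Of 26 BMP targets listed, 25 were in the table and 16 passed the filter. Some of the 16 passed only on wild type counts, so the wild type values below rest partly on genes admitted where they are high. With the knockout libraries alone 7 passed, and 4 of these were called higher in mesoderm, with a median of -1.86. Of these 16, 5 were called higher in knockout mesoderm and 0 in endoderm, where 0.902% and 0.954% of all tested genes were. In 9 of the 16 all mesoderm libraries lay above all endoderm libraries, as they did in 8.62% of all tested genes. The median difference was -1.81, beside -0.007 over all tested genes. In wild type 11 of the 16 were called, all higher in mesoderm, with a median of -2.77, and 4 genes (Id1, Id2, Id3 and Msx1) were called in both. The interaction was called for 0 of the 16 by edgeR, with 6 at an unadjusted p under 0.05, 1 called by DESeq2 and 0 by limma-voom. Summed over the tested members, the level was 63.7 to 70.3 CPM in knockout endoderm and 128 to 158 CPM in knockout mesoderm, and 80.0 to 86.1 against 185 to 308 CPM in wild type. The count was 3 of 19 tested and the median -0.61 without knockout mesoderm library 3.

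The BMP targets that were not called in knockout were mostly those with very few counts there. Cdx2, a caudal homeobox gene of trophoblast and posterior mesoderm, held 1 count in knockout endoderm and 1 in knockout mesoderm, and 196 in wild type mesoderm. Msx2, a homeobox gene related to Msx1, stood at 0.202 to 0.339 CPM in knockout endoderm and at 0.923 to 1.33 CPM in knockout mesoderm (adjusted p = 0.174), against 9.23 to 15.5 CPM in wild type mesoderm. Tfap2a, a factor of ectoderm and trophoblast, stood at 0.169 to 0.404 CPM against 1.12 to 3.20 CPM (adjusted p = 0.0664, and 0.0399 by DESeq2). Tbx3, a T-box factor that is also a naive pluripotency gene, stood at 0.607 to 2.03 against 3.63 to 5.87 CPM (adjusted p = 0.103). In a fit with a replicate block, a term for the library number, Tfap2a and Tbx3 were called (adjusted p = 0.00217 and 0.00914). That fit called 8 of 16 BMP targets higher in knockout mesoderm. Smad7, the other inhibitory SMAD, stood at 37.8 to 42.5 CPM in knockout endoderm and 41.7 to 53.9 CPM in knockout mesoderm (adjusted p = 0.553), and Bambi, a decoy receptor, at 3.22 to 4.94 against 5.07 to 6.77 CPM (adjusted p = 0.573).

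Upstream sequences are shown for the called BMP targets that had one in the RefSeq promoter table, Id2, Id3, Smad6 and Msx1. They were chosen because each was called higher in knockout mesoderm. Each is the 250 bases before the annotated start (build GRCm38.p6, 5′ to 3′ on the gene's strand). Capitals mark the letters GGCGCC or GGAGCC, forms of the GC-rich element that BMP SMADs can bind, and CAGAC, the SMAD4 box, searched on both strands.
Id2: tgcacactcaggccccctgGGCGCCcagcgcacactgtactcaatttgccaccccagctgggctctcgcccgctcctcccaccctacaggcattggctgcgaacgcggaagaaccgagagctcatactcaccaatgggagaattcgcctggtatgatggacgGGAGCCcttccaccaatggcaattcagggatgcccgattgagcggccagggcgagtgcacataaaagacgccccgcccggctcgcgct
Id3: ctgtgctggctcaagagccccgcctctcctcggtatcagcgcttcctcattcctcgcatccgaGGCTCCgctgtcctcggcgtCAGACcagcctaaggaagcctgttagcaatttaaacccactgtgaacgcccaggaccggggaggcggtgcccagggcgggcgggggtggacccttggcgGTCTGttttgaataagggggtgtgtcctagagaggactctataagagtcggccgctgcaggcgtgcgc
Smad6: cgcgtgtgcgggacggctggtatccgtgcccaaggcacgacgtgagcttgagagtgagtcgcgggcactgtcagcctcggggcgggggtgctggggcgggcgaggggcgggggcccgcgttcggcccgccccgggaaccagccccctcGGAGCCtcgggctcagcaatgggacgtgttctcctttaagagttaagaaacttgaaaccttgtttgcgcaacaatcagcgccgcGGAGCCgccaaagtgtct
Msx1: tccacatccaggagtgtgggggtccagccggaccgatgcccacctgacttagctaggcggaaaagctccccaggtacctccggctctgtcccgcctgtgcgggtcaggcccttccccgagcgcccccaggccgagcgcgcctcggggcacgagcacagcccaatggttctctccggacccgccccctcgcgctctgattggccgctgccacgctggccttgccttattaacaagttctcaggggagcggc
The stretches lie at chr12:25096093-25096342 (minus strand) for Id2, chr4:136143572-136143821 (plus strand) for Id3, chr9:64022060-64022309 (minus strand) for Smad6 and chr5:37824586-37824835 (minus strand) for Msx1. Id2 held GGCGCC and GGAGCC, Id3 held GGAGCC and 2 matches to CAGAC, Smad6 held 2 matches to GGAGCC, and Msx1 held none of the 3. Of all 32851 promoter stretches of this length, 9.59% held GGCGCC, 26% GGAGCC and 42.2% CAGAC. Of the 16 tested BMP targets 10 had a stretch in the table, and 3, 6 and 3 of these held the respective motif. A gene was counted if any of its stretches held the motif, while the percentages are of single stretches, so the units differ. A match is a description of letters and no evidence of binding.

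Among BMP ligands and on the receptor side 1 gene of each list was called, where 1.86% of all tested genes were. All endoderm libraries lay above all mesoderm libraries in 1 of 6 ligands and 4 of 20 receptor-side genes (9.59% of all tested genes). All mesoderm libraries lay above in 2 and 2 (8.62%). Of 14 BMP and GDF ligands listed 6 were tested, and 1, Gdf3, a TGF-beta family ligand of pluripotent cells, was called (2.91, 1.69 and 3.64 CPM in knockout endoderm, 5.03, 6.15 and 11.2 CPM in knockout mesoderm; -1.47 ± 0.38, adjusted p = 0.0444). Its call ended under 9 alternatives, among them each of endoderm libraries 1, 2 and 3 and mesoderm libraries 2 and 3 left out (adjusted p 0.057 to 0.392). Bmp4 held 4 counts in each knockout group and was not tested. Of 25 receptors, SMADs and modulators listed 20 were tested, and 1 was called. That gene was Eng, the co-receptor endoglin, at 7.55, 4.40 and 6.27 CPM in knockout endoderm and 11.2, 12.3 and 15.5 CPM in knockout mesoderm (-1.14 ± 0.23, adjusted p = 0.00936; wild type -1.40). Without knockout mesoderm library 3 its adjusted p was 0.101, and without endoderm library 2 it was 0.0963. Smad4, the shared partner, stood at 66.2 to 69.7 CPM in knockout endoderm and 49.6 to 67.7 CPM in knockout mesoderm (adjusted p = 0.376).

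**Figure D2:**
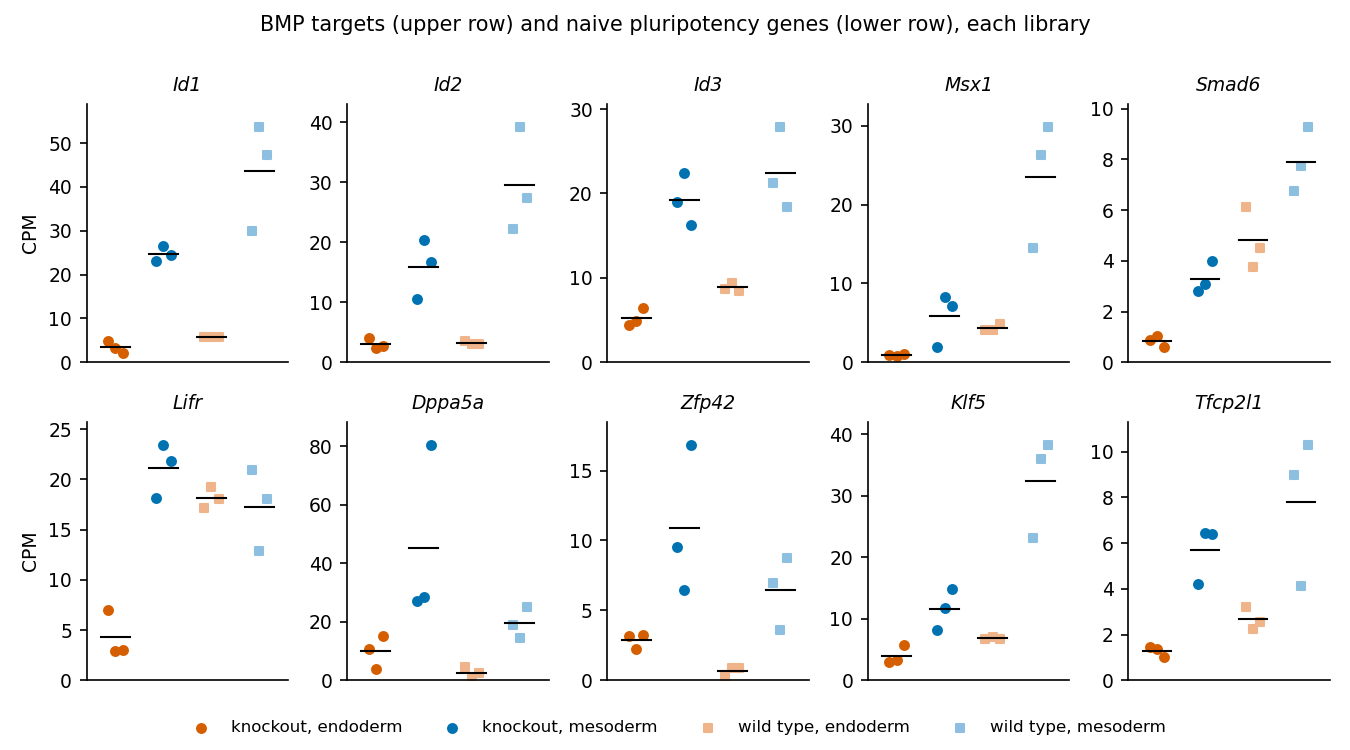
CPM (y axis, linear from 0, own scale per gene) of 5 BMP targets (upper row) and 5 naive pluripotency genes (lower row) in each library, with knockout as circles, wild type as squares and the group mean as a bar. For Id1 all knockout mesoderm libraries (23.2 to 26.5) lie above all knockout endoderm libraries (2.02 to 4.94), and for Dppa5a 1 knockout mesoderm library (80.2) lies far above the other two.

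Some genes of naive pluripotency were higher under the mesoderm protocol in knockout. Of 28 listed, 17 were tested. With the knockout libraries alone 12 passed the filter, and 7 of these were called higher in mesoderm, with a median of -1.45. In knockout 8 were called, all higher in mesoderm, and 0 were called higher in endoderm, against 0.902% and 0.954% of all tested genes. In 13 of the 17 all mesoderm libraries lay above all endoderm libraries, against 8.62% of all tested genes, and the median was -1.54. In wild type 9 of the 17 were called, all higher in mesoderm, with a median of -1.81, and 6 genes were called in both genotypes. The tested members summed to 137, 112 and 143 CPM in knockout endoderm and to 205, 217 and 319 CPM in knockout mesoderm. Library 3 of the mesoderm group was the highest, and without it the count was 2 of 19 tested (Lifr and Tfcp2l1) with a median of -1.23. DESeq2 called 4 and limma-voom 6 of the 17, and the fit with a replicate block called 10.

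Dppa5a, an RNA-binding protein of pluripotent cells, stood at 10.8, 3.89 and 15.0 CPM in knockout endoderm and at 27.1, 28.3 and 80.2 CPM in knockout mesoderm. The groups did not overlap, and the difference was -2.25 ± 0.40 (adjusted p = 0.00414; 0.0646 without mesoderm library 3 and 0.126 with DESeq2). Zfp42 (Rex1), a zinc finger protein used as a marker of naive cells, stood at 3.20, 2.20 and 3.24 CPM against 9.51, 6.46 and 16.8 CPM (-1.96 ± 0.35, adjusted p = 0.00414; 0.0713 without mesoderm library 3). Klf5, a Krüppel-like factor of the naive network, stood at 2.91, 3.22 and 5.66 CPM against 8.11, 11.7 and 14.9 CPM (-1.54 ± 0.29, adjusted p = 0.00562; 0.0727 without mesoderm library 3 and 0.0601 without endoderm library 2). Tfcp2l1, a factor of the same network, stood at 1.45, 1.35 and 1.01 CPM against 4.19, 6.46 and 6.40 CPM (-2.14 ± 0.38, adjusted p = 0.00414), and was called under all 21 alternatives that tested it. In wild type these 4 genes were also higher in mesoderm (-3.19, -3.27, -2.24 and -1.69), and no interaction was called (adjusted p from 0.513 to 0.843).

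Klf2, Esrrb and Pecam1 were called from fewer counts and less firmly. Klf2, a Krüppel-like factor, stood at 0.508 to 1.16 CPM in knockout endoderm and 2.52 to 5.60 CPM in knockout mesoderm (adjusted p = 0.0355). Esrrb, an orphan nuclear receptor, stood at 0.508 to 1.62 against 1.96 to 5.60 CPM (adjusted p = 0.0357). Pecam1, a cell adhesion molecule of naive cells and endothelium, stood at 0 to 0.607 against 0.839 to 4.27 CPM (adjusted p = 0.0269). Without knockout mesoderm library 3 their adjusted p was 0.285, 0.293 and 0.241, and without knockout endoderm library 2 it was 0.219, 0.259 and 0.146. Klf2 was called in 12 of 20, Esrrb in 11 of 20 and Pecam1 in 11 of 19 alternatives that tested them.

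Lifr, the receptor subunit for leukaemia inhibitory factor, separated the genotypes. It stood at 6.97, 2.88 and 3.03 CPM in knockout endoderm and at 18.2, 23.4 and 21.9 CPM in knockout mesoderm (-2.40 ± 0.25, adjusted p = 7.61e-06). In wild type the ranges of the protocols overlapped, 17.2 to 19.2 CPM in endoderm and 12.9 to 21.0 CPM in mesoderm (0.03 ± 0.20, adjusted p = 0.967). The knockout endoderm libraries were thus the low group, and the interaction was -2.43 ± 0.32 (adjusted p = 0.000133). Lifr was the 1 member of the 17 with a called interaction.

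Members of the naive list that were not called included Nanog at 39.8 to 44.2 CPM in knockout endoderm and 42.5 to 67.2 CPM in knockout mesoderm (adjusted p = 0.252), Fgf4 at 23.4 to 39.6 against 25.2 to 38.4 CPM (0.904) and Klf4 at 1.62 to 2.61 against 2.67 to 4.92 CPM (0.376). The general pluripotency factor Pou5f1 (Oct4) stood at 247 to 271 CPM in knockout endoderm and 248 to 260 CPM in knockout mesoderm (adjusted p = 0.974), and Sox2 at 36 to 46.5 against 37.2 to 39.7 CPM (0.894). Of the 15 tested genes of core pluripotency 3 were called, all higher in mesoderm, where 0.902% of all tested genes were. Among them were Tdgf1, described with the Nodal pathway, and Rex2, a zinc finger gene. Rex2 stood at 20, 28.4 and 26.1 CPM in knockout endoderm and 53.1, 35.7 and 84.8 CPM in knockout mesoderm (adjusted p = 0.0101; 0.142 without mesoderm library 3 and 0.083 with DESeq2).

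**Figure D3:**
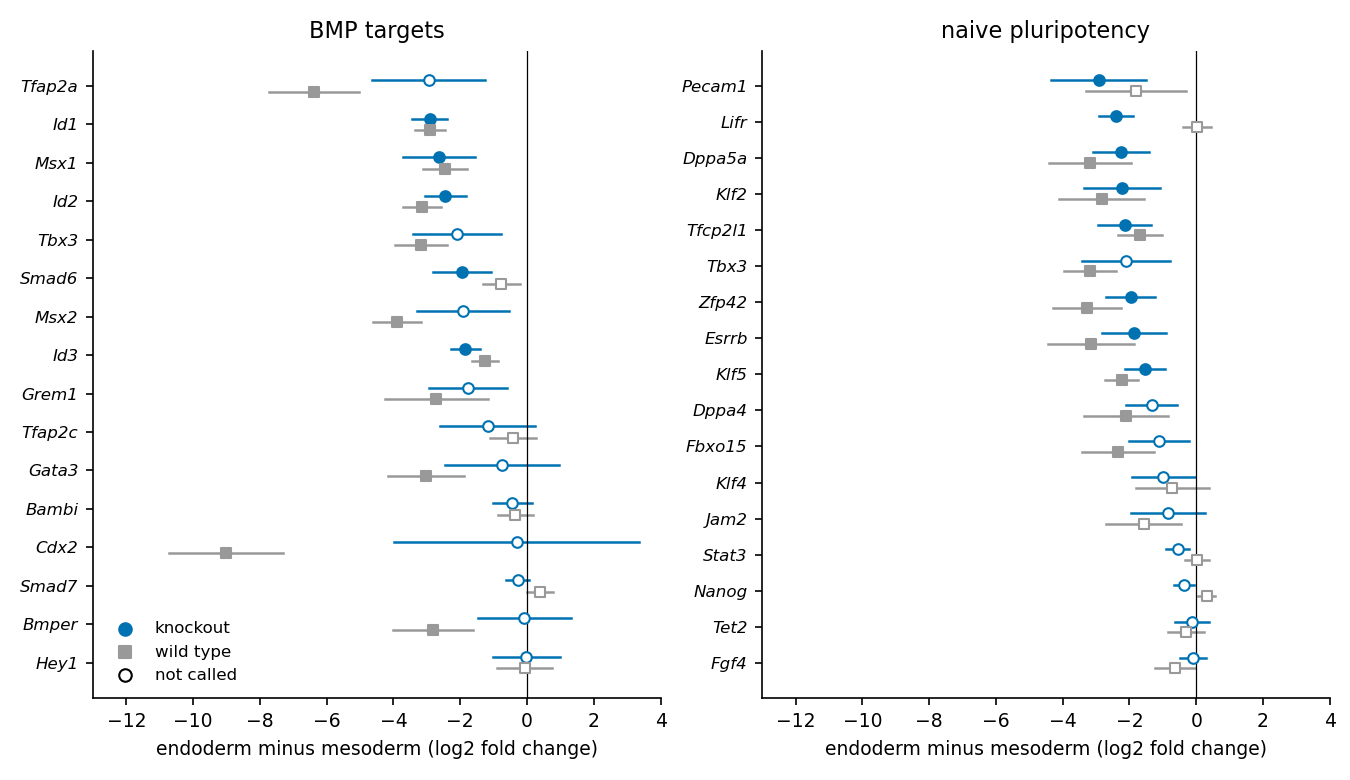
Log2 fold change of endoderm minus mesoderm (x axis) with 95% intervals for each tested BMP target (left) and naive pluripotency gene (right), with knockout as blue circles and wild type as grey squares, filled where called. All 16 BMP targets and all 17 naive genes have a negative knockout value, and 5 and 8 of them are called. The median over all tested genes was -0.007. Some of these signs rest on very few counts or on small differences. Cdx2 ran from -2.06 to 1.74 over the alternatives. Hey1 kept its sign in 15 of 20 alternatives and Fgf4 in 20 of 22.

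Other genes higher under the mesoderm protocol in both genotypes included Dnmt3l, Tdh, Dnah8 and Cubn. Dnmt3l, a cofactor of de novo DNA methylation, stood at 1.16, 0.677 and 2.02 CPM in knockout endoderm and 5.87, 6.77 and 18.1 CPM in knockout mesoderm (-3.00 ± 0.49, adjusted p = 0.00197; wild type -4.41). Tdh, threonine dehydrogenase, which embryonic stem cells use to feed one-carbon metabolism, stood at 2.91, 0.677 and 0.809 CPM against 3.63, 7.69 and 16.0 CPM (-2.81 ± 0.51, adjusted p = 0.00414; 0.0713 without mesoderm library 3). Dnah8, an axonemal dynein heavy chain, stood at 1.45, 0.677 and 4.65 CPM against 6.15, 13.2 and 36 CPM (-3.04 ± 0.59, adjusted p = 0.00669; 0.118 without mesoderm library 3, 0.0681 without endoderm library 2 and 0.0672 with limma-voom). For these 3 genes mesoderm library 3 was the highest by a wide margin. Cubn, the endocytic receptor cubilin, was even, at 6.68, 5.76 and 2.83 CPM against 22.6, 22.8 and 25.9 CPM (-2.25 ± 0.31, adjusted p = 0.000519; wild type -2.52), and it was called under all 22 alternatives. C77370 (-1.98) and Piezo2, a mechanically gated channel (-1.95), were also called in both genotypes. Dlc1, a RhoGAP, was called in knockout (-1.97 ± 0.36, adjusted p = 0.00468; 0.0713 without mesoderm library 3 and 0.0552 without endoderm library 2) and not in wild type (-0.21, adjusted p = 0.716), and its interaction missed the threshold (adjusted p = 0.0567).

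Wnt targets were higher in knockout mesoderm for 4 of 21 tested genes (26 listed), with 0 higher in endoderm, against 0.902% and 0.954% of all tested genes, and a median of -0.35. The count was 2 of 21 without mesoderm library 3 and also 2 without endoderm library 2. In wild type 11 were higher in mesoderm and 5 in endoderm. Tnfrsf19, a TNF receptor family member, stood at 1.74, 1.02 and 1.21 CPM in knockout endoderm and at 3.91, 9.54 and 7.46 CPM in knockout mesoderm (-2.42 ± 0.35, adjusted p = 0.000778). Wnt3, the ligand that starts the primitive streak and is itself counted among the targets, stood at 5.52, 4.91 and 5.87 CPM against 10.6, 12.6 and 13.1 CPM (-1.16 ± 0.19, adjusted p = 0.00208). Axin2, a feedback inhibitor, stood at 8.43, 6.94 and 6.88 CPM against 10.6, 16.6 and 22.9 CPM (-1.2 ± 0.24, adjusted p = 0.0102; 0.142 without mesoderm library 3 and 0.0701 without endoderm library 2). Sp8, a zinc finger factor, was the fourth (-1.24 ± 0.32, adjusted p = 0.0434; 0.323 without mesoderm library 3, and called in 14 of 22 alternatives). The wild type differences of Tnfrsf19, Wnt3, Axin2 and Sp8 were -1.63, -0.94, -1.06 and -2.14, and none of the 4 interactions was called. Lef1, a nuclear partner of beta-catenin, did differ between genotypes. It was 9.65 to 12.9 CPM against 14.2 to 20.1 CPM in knockout (-0.59 ± 0.19, adjusted p = 0.127) and 11.5 to 15.0 against 37.4 to 51.5 CPM in wild type (-1.80 ± 0.17), with an interaction of 1.21 ± 0.26 (adjusted p = 0.014).

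Among streak genes Evx1, a homeobox gene of the posterior streak, was called in knockout, at 0.872, 0.339 and 1.01 CPM in endoderm and 2.80, 6.46 and 10.7 CPM in mesoderm (-3.20 ± 0.50, adjusted p = 0.00187). Its wild type libraries lay at 9.95 to 11.3 and 23.9 to 37.9 CPM (-1.61 ± 0.24), so the difference remained at lower levels, and the interaction was not called (adjusted p = 0.273). T (brachyury), the T-box factor of streak and mesoderm, stood at 1.45, 0.677 and 1.21 CPM in knockout endoderm and 3.63, 2.77 and 7.73 CPM in knockout mesoderm, from 15 and 51 counts. It was not called (-2.16 ± 0.75, adjusted p = 0.175), although DESeq2 called it (0.034), as did the fit with a replicate block (0.00472). Wild type T lay at 36.9 to 57.3 and 130 to 315 CPM. Dusp4, a phosphatase that FGF-ERK signalling induces, was the 1 called gene of 13 tested FGF-ERK targets, beside 1.86% of all tested genes. In 5 of the 13 all knockout mesoderm libraries lay above all knockout endoderm libraries (8.62% of all tested genes). In wild type 4 of the 13 were called higher in endoderm (4.41%) and 1 in mesoderm (5.43%). The interaction was called for 5 of the 13 (1.4%). Dusp4 stood at 4.65, 5.93 and 6.07 CPM against 14.3, 16.3 and 16.3 CPM in knockout (-1.46 ± 0.23, adjusted p = 0.00187; wild type -2.52, interaction adjusted p = 0.125). Gbp2, a guanylate-binding protein, was the 1 called gene of 31 tested interferon-stimulated genes, beside 1.86% of all tested genes (0.809 to 1.16 CPM against 5.03 to 6.93 CPM; adjusted p = 0.00766, 0.0574 without mesoderm library 3, 0.0543 without endoderm library 2 and 0.074 with limma-voom). Of these 31 genes 13 were called higher in wild type mesoderm and 0 in wild type endoderm, and 4 had a called interaction.

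Among the named genes higher under the endoderm protocol in knockout, Igfbp5 had the largest fold. Igfbp5, a secreted binding protein for insulin-like growth factors (chromosome 1, 72858065 to 72874865), stood at 125, 129 and 91.2 CPM in knockout endoderm and at 17.1, 8.31 and 8.26 CPM in knockout mesoderm. The groups were far apart, with a 10.2-fold difference (3.35 ± 0.22 on the log2 scale, adjusted p = 6.28e-09). In wild type it stood at 27.1 to 36.4 CPM in endoderm and 1.01 to 4.24 CPM in mesoderm (3.64 ± 0.33), and the interaction was -0.29, with a 95% interval from -1.25 to 0.67. Atp10d, a phospholipid flippase, stood at 125, 134 and 130 CPM against 59.3, 46.5 and 40.0 CPM in knockout (1.42 ± 0.13, adjusted p = 1.56e-06). Its wild type difference was 2.13 ± 0.14, and the interaction missed the threshold (-0.72 ± 0.19, adjusted p = 0.077).

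Slitrk5, a synaptic adhesion protein, stood at 12.8, 12.5 and 13.6 CPM against 4.19, 2.77 and 2.40 CPM (2.04 ± 0.30, adjusted p = 0.000917; wild type 1.11, adjusted p = 0.0698). Tenm4, a teneurin, stood at 25.9, 26.6 and 18 CPM against 11.7, 8.31 and 7.46 CPM (1.35 ± 0.18, adjusted p = 0.000385; wild type 0.54). Both were called under all 22 alternatives, and neither interaction was called. Pak3, a kinase of dendritic spines (1.48), Unc80, a subunit of the sodium leak channel (1.40), and Sema3c, a secreted semaphorin (1.30), were called in both genotypes. So were Ddah1, which degrades methylated arginines (1.52), Lbh, a transcription cofactor (1.36), and Slc35d3, a nucleotide sugar transporter family member (1.33). Without knockout mesoderm library 3 Pak3 (adjusted p = 0.103), Unc80 (0.0837), Lbh (0.147) and Slc35d3 (0.249) were no longer called, and without endoderm library 2 their values were 0.0681, 0.0612, 0.0985 and 0.197. Of 8 tested neural ectoderm genes 2 were called higher in endoderm (0.954% of all tested genes were), and 0 of 8 without mesoderm library 3 or endoderm library 2. The 2 genes were Nes, the intermediate filament nestin (105 to 112 against 66.9 to 80.0 CPM, adjusted p = 0.0101; 0.114 without mesoderm library 3 and 0.0543 without endoderm library 2), and Sox3 (15.4 to 19.6 against 8.92 to 12 CPM, adjusted p = 0.0358; 0.0945 without mesoderm library 3, and called in 13 of 22 alternatives). The defining neural genes Sox1 and Pax6 held 4 and 20 counts in knockout endoderm and 5 and 13 in knockout mesoderm.

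Several genes of the Nodal pathway differed between genotypes. Lefty1, a secreted Nodal inhibitor that Nodal itself induces (chromosome 1, 180935022 to 180938401), stood at 32.8, 23.2 and 29.7 CPM in knockout endoderm and at 12.9, 9.23 and 10.4 CPM in knockout mesoderm (1.37 ± 0.18, adjusted p = 0.000279). In wild type it stood at 64.7 to 88.3 CPM in endoderm and 1.18 to 2.06 CPM in mesoderm (5.83 ± 0.24). The knockout value was thus lower in endoderm and higher in mesoderm than in wild type libraries, and the interaction was -4.46 ± 0.35 (adjusted p = 2.32e-07). Lefty2, its neighbour and paralog, stood at 5.23, 4.57 and 7.89 CPM against 7.27, 10.5 and 17.3 CPM in knockout, which was not called (-0.99 ± 0.33, adjusted p = 0.155), and at 16.3 to 31.7 against 1.03 to 2.52 CPM in wild type (3.6 ± 0.39; interaction -4.59 ± 0.52, adjusted p = 2.07e-05). In the fit with a replicate block the knockout difference of Lefty2 was called, higher in mesoderm (adjusted p = 0.0342). Reads shared between the paralogs could not be checked.

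Tdgf1 (Cripto), the Nodal co-receptor, turned direction. It stood at 39.2, 29.0 and 49.8 CPM in knockout endoderm and at 59.6, 90.8 and 113 CPM in knockout mesoderm (-1.17 ± 0.19, adjusted p = 0.00187), and at 170 to 217 against 86.0 to 97.8 CPM in wild type (1.09 ± 0.17). The interaction was -2.25 ± 0.25 (adjusted p = 1.49e-05), and the knockout difference was called in 21 of 22 alternatives. Nodal stood at 18.3, 15.2 and 20 CPM against 22.4, 28.3 and 34.4 CPM in knockout (-0.68 ± 0.17, adjusted p = 0.0462), a call that ended under 11 alternatives, with 0.333 without mesoderm library 3. In wild type Nodal was not called (0.29 ± 0.16). Pmepa1, a feedback inhibitor of TGF-beta signalling from the TGF-beta and matrix list, kept its direction at a smaller size (28.8, 40.6 and 29.3 CPM against 20.7, 21.8 and 17.1 CPM in knockout, 0.75 ± 0.15, adjusted p = 0.00846; wild type 2.03 ± 0.16; interaction adjusted p = 0.00242). Without mesoderm library 3 its adjusted p was 0.091, and without endoderm library 2 it was 0.100. Of 21 tested Nodal and Activin targets 1 was called higher in knockout endoderm and 2 in knockout mesoderm, against 11 and 1 in wild type, and 6 had a called interaction. Over all tested genes 0.954% and 0.902% were called in knockout, 4.41% and 5.43% in wild type, and 1.4% in the interaction.

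**Figure D4:**
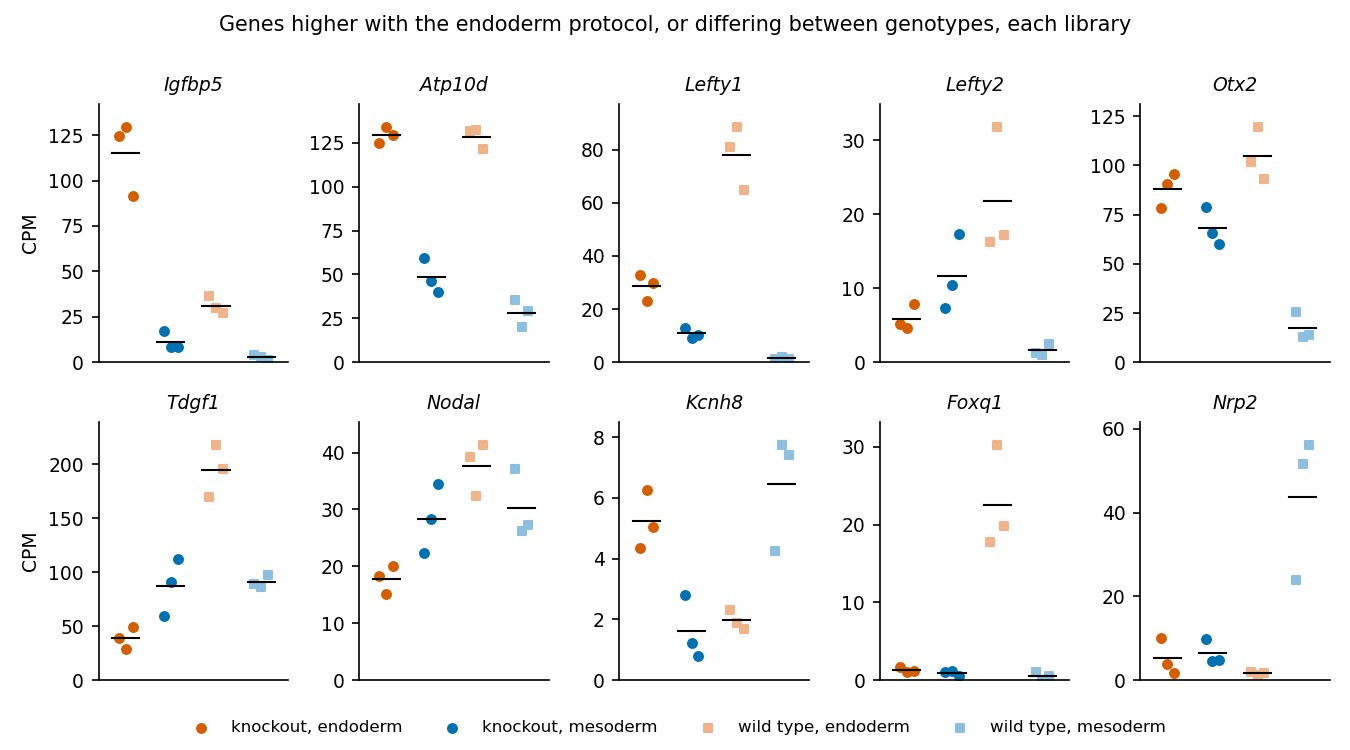
CPM (y axis, linear from 0, own scale per gene) in each library of genes higher with the endoderm protocol or with a called difference between genotypes, with knockout as circles, wild type as squares and the group mean as a bar. Igfbp5 and Atp10d show the same direction in both genotypes, Tdgf1 and Kcnh8 opposite directions, and Foxq1 and Nrp2 a difference in wild type only.

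Besides Tdgf1, the genes called in opposite directions were Kcnh8, Camk1d, Nptx2 and Sgk1. Kcnh8, a potassium channel, stood at 4.36, 6.26 and 5.06 CPM in knockout endoderm and 2.80, 1.23 and 0.800 CPM in knockout mesoderm (1.71 ± 0.40, adjusted p = 0.0254), and was higher in mesoderm in wild type (-1.69 ± 0.37). Camk1d, a calcium-dependent kinase (-1.54 in knockout, 1.49 in wild type), Nptx2, a secreted pentraxin (-1.23 and 0.96), and Sgk1, a kinase downstream of PI3K (-0.62 and 0.47), were higher in mesoderm in knockout only. The 4 interactions were called (adjusted p from 0.000832 to 0.00103). Without knockout mesoderm library 3 the knockout calls of all 4 ended (adjusted p 0.0723 to 0.185 for Kcnh8, Camk1d and Sgk1, and 0.0651 for Nptx2). Without endoderm library 2 those of Kcnh8, Camk1d and Nptx2 ended (0.146, 0.146 and 0.0612). Podxl, Car2 and Ncoa4 were called in knockout, not in wild type, with called interactions. Podxl, the sialomucin podocalyxin, was 27.9 to 36 CPM in knockout endoderm and 45.3 to 60.6 CPM in knockout mesoderm (-0.81 ± 0.13, adjusted p = 0.00188), against 79.7 to 85.1 and 69 to 92.5 CPM in wild type. Car2, a carbonic anhydrase (-0.79, adjusted p = 0.0195), and Ncoa4, the ferritinophagy receptor (-0.45, adjusted p = 0.0317), lost their calls without mesoderm library 3 (0.0767 and 0.216) and without mesoderm library 2 (0.123 and 0.105).

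The largest wild type differences that were not called in knockout, with a called interaction, were mostly genes of the endoderm protocol. Foxq1, a forkhead factor, was 17.7 to 30.2 CPM in wild type endoderm and 1.02 to 1.74 CPM in knockout endoderm, with 0.533 to 1.23 CPM in knockout mesoderm (interaction -4.81 ± 0.86, adjusted p = 0.00345). Trh, the thyrotropin-releasing hormone precursor, was 13.4, 36.2 and 27.5 CPM against 22.6, 24.9 and 24.5 CPM in knockout and 124 to 277 against 9.27 to 15.5 CPM in wild type (interaction -3.77). The other genes of this kind that the naming rule gave were Lefty2, described above (-4.59), Car4, a carbonic anhydrase (-3.32), Pkdcc, a secreted kinase (-3.16), Adamts9, a matrix protease (-3.10), and Pcdh8, a protocadherin of paraxial mesoderm (-2.93). Nrp2, the co-receptor neuropilin 2, was the mesoderm gene among them, at 10.2, 3.89 and 1.62 CPM against 9.79, 4.61 and 4.80 CPM in knockout and 1.2 to 2.04 against 23.9 to 56.1 CPM in wild type (interaction 4.33 ± 0.73, adjusted p = 0.00161).

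Genes of primed and formative pluripotency showed a graded case. Fgf5, the ligand that marks the formative epiblast, stood at 46.8, 54.3 and 61.5 CPM in knockout endoderm and 33.6, 36 and 24.3 CPM in knockout mesoderm (0.81 ± 0.21, adjusted p = 0.0492), against 103 to 106 and 4.71 to 18.5 CPM in wild type (3.31 ± 0.24; interaction -2.51 ± 0.33, adjusted p = 0.000133). The knockout call lay at the threshold and ended under 13 of 22 alternatives, with 0.583 by DESeq2. Otx2, a homeobox factor of the anterior epiblast, was 78.2 to 95.7 against 60.3 to 78.6 CPM in knockout (0.37 ± 0.15, adjusted p = 0.259) and 92.9 to 119 against 12.9 to 25.7 CPM in wild type (2.57 ± 0.18; interaction adjusted p = 8.83e-06). For both genes the knockout mesoderm libraries lay above all wild type mesoderm libraries. Irs4, an insulin receptor substrate, was higher in endoderm in both genotypes, less so in knockout (1.27 against 3.73; interaction adjusted p = 0.00357), and without mesoderm library 2 or 3 its knockout call ended (0.0562 and 0.0616). Of 21 tested genes of this list 2 were called in knockout, Fgf5 and Sox3, against 11 in wild type, and 8 had a called interaction. Over all tested genes the shares were 1.86%, 9.84% and 1.4%.

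Sox17, Foxa2, Cer1, Mesp1 and Kdr, 5 of the defining genes of the labelled lineages, were close to 0 in knockout under both protocols. T, another defining gene, held more counts in knockout mesoderm, as given above. Sox17 and Foxa2, factors of definitive endoderm, held 12 and 8 counts in knockout endoderm and 4 each in knockout mesoderm, against 282 and 326 in wild type endoderm. Cer1, a secreted inhibitor of Nodal and BMP, held 3 and 0 counts, against 971 in wild type endoderm. Mesp1, a factor of nascent mesoderm, held 1 and 0 counts, and Kdr, a VEGF receptor of mesoderm progenitors, 1 and 1, against 98 and 99 in wild type mesoderm. None of these 5 was called between the knockout protocols. Cxcr4, Mixl1, Pdgfra and Gata4 were called between them under 0 of the alternative settings. Of 16 tested definitive endoderm genes 0 were called in knockout by edgeR, DESeq2 or limma-voom, with 2 at an unadjusted p under 0.05, and 12 were called in wild type. The knockout difference was positive for 12 of the 16 and negative for 4. In 3 of the 16 all knockout endoderm libraries lay above all knockout mesoderm libraries (9.59% of all tested genes). Of 9 tested genes of nascent and paraxial mesoderm 0 were called in knockout by edgeR or limma-voom. In this list 1 was at an unadjusted p under 0.05, 1 was called by DESeq2, and 6 were called in wild type. Over all tested genes 1.86% were called in knockout and 9.84% in wild type, so 0 calls in lists this short say little by themselves. With the knockout libraries alone, 6 definitive endoderm genes and 2 of nascent and paraxial mesoderm passed the filter. Most members thus entered on their wild type counts and could hardly be called in knockout. The knockout and wild type counts of these lists are therefore not an even comparison. Eomes, a T-box factor upstream of both lineages, was 12.2 to 18.4 CPM against 12 to 21.6 CPM in knockout (adjusted p = 0.886; wild type 1.04; interaction -1.15, adjusted p = 0.00701). Gata6, an endoderm factor, was 0.404 to 2.03 against 0.615 to 1.12 CPM in knockout (interaction -3.05, adjusted p = 0.0312). Flt1 and Runx1 of the haemato-endothelial list, higher in wild type endoderm (3.07 and 2.58), were not called in knockout (adjusted p = 0.355 and 0.971; interaction -3.71 and -2.50).

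Markers of fibroblasts and feeder cells overlapped between the knockout protocols. Of 14 tested genes of fibroblasts and feeder cells 0 were called by edgeR, DESeq2 or limma-voom, with 4 at an unadjusted p under 0.05. Without knockout endoderm library 1, 2 of 14 were called higher in mesoderm, the collagen VI chains Col6a1 (-2.09) and Col6a2 (-1.98), and the list's median moved from -0.11 to -0.48. In the fit with a replicate block Col6a1 and Col6a2 were called higher in mesoderm (adjusted p = 0.000455 and 4.45e-05). Postn, another gene of the list, was called higher in endoderm there (0.00297). The part of these cells in the other results was not tested. The summed level of the list was 395, 215 and 124 CPM in knockout endoderm and 407, 203 and 168 CPM in knockout mesoderm, so library 1 was the highest in each group and the groups overlapped. The surface ectoderm keratins Krt5 and Krt14 held 0 counts in knockout endoderm and 0 and 1 in knockout mesoderm, and the trophoblast factor Elf5 held 0 and 2. Among genes of general cell state, 0 of 23 genes of the G1-S transition, 0 of 18 of G2-M, 0 of 18 of the unfolded protein response and 0 of 21 p53 targets were called by edgeR, DESeq2 or limma-voom, with 1, 1, 0 and 4 at an unadjusted p under 0.05. Of all 11635 tested genes edgeR called 1.86% in knockout, and 1476 had an unadjusted p under 0.05. Of 21 tested genes of cholesterol synthesis and uptake 0 were called by any of the 3 tools. A higher mean in knockout endoderm was seen for 20, 8 of them at an unadjusted p under 0.05. In 9 of the 21 all endoderm libraries lay above all mesoderm libraries, as in 9.59% of all tested genes. The summed level of the list was 1220 to 1380 CPM against 1020 to 1220 CPM.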

How the data were processed

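RNA was sequenced after ribosomal RNA depletion with a directional kit on the Illumina HiSeq2000, per the labels' protocols. The authors deposited whole-number counts per gene for all 12 libraries in one table. STAR, DESeq2 and the build mm10 are named in the submitters' processing notes, while versions, the counting tool and its strand setting were not given in the sources used here. Rn45s, 79.7% to 82.4% of all counts, entered neither library sizes nor tests, and Mir6236 and Lars2 took 49.7% to 69.5% of the rest. Of the 19680 genes, 26 whose count in 1 wild type endoderm library had been turned into a date were left out, and 347 had no symbol.

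Counts were fitted with edgeR 4.0.16 (R 4.3.3): TMM scaling, filterByExpr with a minimum count of 10, and a quasi-likelihood fit of 4 group means over all 12 libraries, which share one estimate of spread. The contrasts tested were knockout endoderm minus mesoderm, the same in wild type, and their difference (the interaction), with p-values adjusted by Benjamini-Hochberg over every gene tested. The procedure was tested on simulated data. DESeq2 1.42.0, limma-voom (limma 3.58.1), other filters and scalings, a replicate block, a test against a 1.5-fold difference, a fit of the knockout libraries alone and each library left out were the alternatives.

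Named genes were a fixed panel, the 12 largest called knockout differences in each direction at 5 CPM or more on average whose libraries did not overlap, members of the BMP and naive lists, up to 6 genes with the smallest adjusted p of each other list, and up to 8 genes of each class of agreement between genotypes. Genes given only by raw counts are defining markers of a list. The members and lists were chosen with earlier results of these data known. Gene positions and promoters are from RefSeq.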

Additional observations from a re-analysis of the deposited data

Results flagged for a closer look

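The endoderm-to-mesoderm difference itself differed between genotypes, by the interaction term of the edgeR fit at an adjusted p under 0.05, for 28 of the genes named above. On the log2 scale, knockout minus wild type, the difference was smaller in knockout or turned towards mesoderm for the Nodal pathway genes Lefty1 (-4.46), Lefty2 (-4.59), Tdgf1 (-2.25) and Nodal (-0.97). The same sign was seen for the TGF-beta inhibitor Pmepa1 (-1.28), Fgf5 (-2.51), Otx2 (-2.20), Irs4 (-2.46), Eomes (-1.15) and Gata6 (-3.05). It was also seen for Foxq1 (-4.81), Trh (-3.77), Car4 (-3.32), Pkdcc (-3.16), Adamts9 (-3.10), Pcdh8 (-2.93), Flt1 (-3.71) and Runx1 (-2.50).

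Genes that were higher in knockout mesoderm and not in wild type mesoderm were Lifr (-2.43), Podxl (-0.79), Car2 (-1.21), Ncoa4 (-0.77), Camk1d (-3.02), Nptx2 (-2.19) and Sgk1 (-1.09). The interaction was positive for Nrp2 (4.33) and Lef1 (1.21), which were higher in wild type mesoderm, and for Kcnh8 (3.40), which turned direction. Every group held 3 libraries, so no group was searched for single outlying libraries.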

How the results depend on the processing

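Knockout calls numbered 216, wild type calls 1145, interaction calls 163 and calls shared in direction 132. Without a filter the knockout, interaction and shared calls were 483, 377 and 287. Against a 1.5-fold difference they were 26 (5 higher in endoderm, 21 in mesoderm), 55 and 22, with 404 in wild type. With the replicate block they were 377, 255 and 222, and all 216 knockout genes remained. Same-numbered knockout libraries correlated at 0.086 to 0.193 in their deviations from group means and others at -0.176 to -0.015, and 6 of 6 libraries correlated best with their own number. Every same-numbered knockout pair thus lay above every other pair. The second principal component of the knockout libraries (22.8% of the variance) ran from library 1 through 2 to 3 in both groups. Between genotypes some same-numbered values were negative (-0.056 and -0.047). The main fit left the numbers out because 1 knockout pair (0.086) was under a cut of 0.1. That cut does not show the libraries to be unpaired, and whether same-numbered libraries were prepared together was not tested. DESeq2 called 148 knockout genes, 141 of them among the 216, and limma-voom 202, with 186 among them.

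Over the libraries left out in turn, knockout calls ran from 59 (without knockout mesoderm library 3) to 315 (without wild type mesoderm library 1), wild type calls from 741 (without wild type mesoderm library 3) to 1391, interaction calls from 104 (without knockout mesoderm library 2) to 354 (without wild type mesoderm library 1) and shared calls from 42 (without knockout mesoderm library 3) to 184. Without wild type endoderm library 2 there were 753 wild type and 105 interaction calls. Without knockout endoderm library 2 there were 62 shared calls, and without knockout mesoderm library 2 there were 82. The cause was not tested. No named gene that was called changed sign under any alternative. The libraries held 1949299 to 6678893 counts without Rn45s, so 3 counts stood for 0.449 to 1.54 CPM, and values near that level rest on few counts.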
